A study of Paxillus involutus with 25 samples.

Results

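The mycelium of Paxillus involutus strain ATCC 200175 was compared between 2 potassium-bearing minerals: 5 cultures with K-vermiculite flakes against 5 with phlogopite flakes, 10 of the 25 cultures sequenced. Both groups grew on K-depleted MMN agar, which was made without KH2PO4 and so lacked its phosphate as well as its potassium. The other groups drawn on here were 5 cultures on the same K-depleted agar without mineral, 5 with muscovite flakes on it, and 5 on complete MMN agar, also without mineral. All were grown for 21 days at 25 °C in the dark from agar plugs on a cellophane membrane. In the mineral groups the plugs were set around the flakes (about 2 cm2). All genes that passed a filter on low counts were compared, 12744 of 18032 gene IDs. The labels call the 5 cultures of each group biological replicates.

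Paxillus involutus forms ectomycorrhiza, in which the fungus wraps tree root tips and trades soil minerals for plant sugars. Sheet silicates such as micas and vermiculites hold potassium ions between their layers, and fungi reach that potassium by acidifying, chelating and physically prying at the mineral surface. Phlogopite is a magnesium-rich mica, and vermiculite is an expandable sheet silicate that forms from mica. The labels rank K-vermiculite below phlogopite in how readily its potassium weathers. That order was not checked here, may be reversed, and enters no result below. By its title the study is about how the fungus extracts potassium from several such minerals, and the comparison asks whether its transcripts differ between these 2. The reference annotation names no gene products, so the genes below are identified by locus tag and carry no stated function, apart from 2 with symbols.

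The libraries of the 2 groups held 24.8 to 41.2 M counts (1 M is 1000000), against 21.0 to 41.2 M over all 25. Replicates within the 2 groups differed well beyond counting noise, with a chi-square per degree of freedom from 12.2 to 91.9, so each was kept as its own sample. Levels are given as CPM, counts per 1 M after TMM scaling of library sizes. Over the 10040 genes at a mean of at least 5 CPM, the median coefficient of variation between replicates was 6.71% with K-vermiculite and 8.78% with phlogopite. Cultures are listed in the order of their replicate numbers, 1 to 5.

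Transcripts of a large part of the genome differed between the 2 minerals, mostly by small amounts. Calls were made at a Benjamini-Hochberg adjusted p below 0.05 in edgeR's quasi-likelihood test. By this rule 6427 genes were called, 50.4% of those tested: 3202 were higher with K-vermiculite (25.1%) and 3225 lower (25.3%). Of the called genes, 4726 (73.5%) differed by less than 1.5-fold and 1279 (19.9%) by 1.5-fold to 2-fold, and the median difference was 1.32-fold. At least 2-fold differences numbered 422, or 3.31% of genes tested, with 195 higher (1.53%) and 227 lower (1.78%). Differences of 4-fold or more were found for 37 of the called genes, 15 higher and 22 lower with K-vermiculite. The split of directions moved with the scaling: higher genes made up 49.8% of the calls with TMM, 58.6% with library totals and 57.3% with upper quartile scaling, where the median of all genes moved from 0.000575 to 0.0510 and 0.0450 on the log2 scale.

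Separation of the cultures was common among the called genes. Among the 5457 calls at a mean level of 5 CPM or more, 3922 (71.9%) had all 5 values of one mineral above all 5 of the other. Over all tested genes, at any level, the share was 35.6%. Calls rest on the same values, so these shares describe the calls and are no further test of them. The share of called genes whose value in a given culture fell inside the range of the other mineral ran from 7.36% (phlogopite replicate 3) to 12.9% (K-vermiculite replicate 3). Among the 6317 genes not called, 5110 had a 95% interval of the fold change that stayed inside 1.5-fold in both directions, which is 40.1% of all genes tested. For 350 genes not called the interval reached 2-fold, so a difference of that size was not excluded for them.

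**Figure D1:**
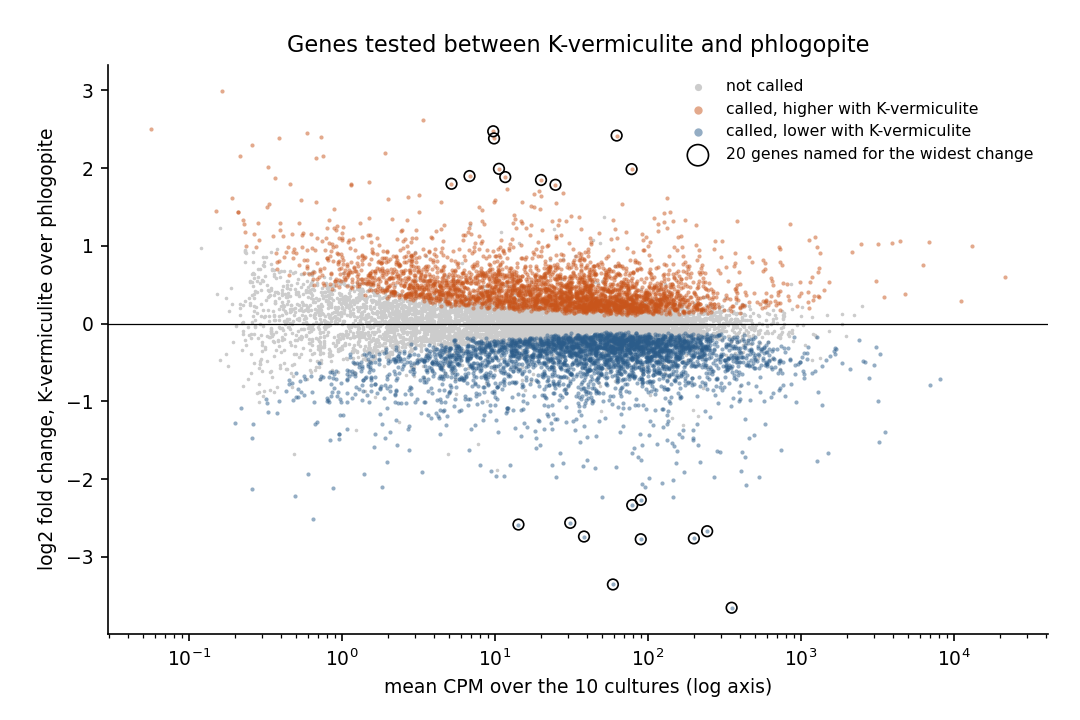
Log2 fold change of K-vermiculite over phlogopite for each tested gene, against its mean CPM over the 10 cultures on a log axis. Orange and blue points are the 3202 and 3225 called genes, grey points were not called, and circles mark the 20 genes named for the widest change at 5 CPM or more with no overlap, which lie between log2 fold changes of -3.65 and 2.47.

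Among calls that averaged 5 CPM or more with no overlap between the groups, the widest changes were falls with K-vermiculite. The 10 lowest of these genes fell by 4.81-fold to 12.6-fold. PAXINDRAFT_167028 was measured at 61.2, 48.4, 60.8, 37.97 and 51.1 CPM in the K-vermiculite cultures and at 610.5, 590.4, 658, 873 and 532 CPM in the phlogopite cultures (log2 fold change of -3.65 with SE 0.24, adjusted p 9.42e-11 by edgeR). The lowest phlogopite culture stood at 532 CPM and the highest K-vermiculite culture at 61.2 CPM. PAXINDRAFT_175161 was measured at 12.4, 11.8, 12.1, 8.46 and 7.97 CPM in the K-vermiculite cultures and at 94.1, 83.9, 111, 156 and 91.9 CPM in the phlogopite cultures (log2 fold change of -3.35 with SE 0.21, adjusted p 8.43e-11 by edgeR). PAXINDRAFT_97712 was measured at 78.97, 63.7, 67.2, 48.5 and 72.7 CPM in the K-vermiculite cultures and at 393, 415, 451, 421 and 426 CPM in the phlogopite cultures (log2 fold change of -2.67 with SE 0.17, adjusted p 2.25e-11 by edgeR). Replicates of the last gene were tight with phlogopite, at 421 ± 20.97 CPM (SD, n = 5), and its K-vermiculite values averaged 66.2 ± 11.5 CPM. PAXINDRAFT_169338 averaged 51.4 ± 16.9 CPM with K-vermiculite and 348 ± 36.7 CPM with phlogopite (log2 fold change of -2.76 with SE 0.27, adjusted p 4.95e-08 by edgeR). PAXINDRAFT_12839 averaged 9.98 ± 2.68 and 66.4 ± 10.3 CPM (log2 fold change of -2.74 with SE 0.24, adjusted p 9.12e-09 by edgeR).

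In 2 of these 10 genes the K-vermiculite cultures themselves spread widely. PAXINDRAFT_96838 was measured at 35.2, 18.03, 33.8, 17.6 and 10.1 CPM in the K-vermiculite cultures and at 185, 183, 143, 95.1 and 176 CPM in the phlogopite cultures (log2 fold change of -2.77 with SE 0.31, adjusted p 2.91e-07 by edgeR). PAXINDRAFT_56670 ranged from 10.4 to 49.2 CPM with K-vermiculite and from 96.2 to 196 CPM with phlogopite, and its estimate was the least certain of the 10 (log2 fold change of -2.27 with SE 0.43, adjusted p 0.000169 by edgeR). In both genes K-vermiculite replicates 4 and 5 were the lowest of their group. The other 3 were PAXINDRAFT_11534 (-2.58), PAXINDRAFT_21058 (-2.56) and PAXINDRAFT_165288 (-2.33), all as log2 fold changes with no overlap between the groups.

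The 10 called genes with the widest rise under the same conditions were 3.45-fold to 5.55-fold higher with K-vermiculite. PAXINDRAFT_6572 was measured at 79.9, 117, 113, 124 and 92.4 CPM in the K-vermiculite cultures and at 22.2, 20.7, 19.4, 19.1 and 17.01 CPM in the phlogopite cultures (log2 fold change of 2.42 with SE 0.23, adjusted p 3.12e-08 by edgeR). Its phlogopite cultures stayed within a narrow band while those with K-vermiculite were all at least 3 times higher. PAXINDRAFT_169405 was measured at 132, 129.8, 119, 117 and 126 CPM in the K-vermiculite cultures and at 33.1, 33.8, 20.98, 33.4 and 36.3 CPM in the phlogopite cultures (log2 fold change of 1.99 with SE 0.15, adjusted p 6.41e-10 by edgeR). PAXINDRAFT_158079 was measured at 14.1, 12.7, 17.7, 9.26 and 28.6 CPM in the K-vermiculite cultures and at 2.49, 2.86, 1.49, 3.43 and 4.68 CPM in the phlogopite cultures (log2 fold change of 2.47 with SE 0.32, adjusted p 1.85e-06 by edgeR). The K-vermiculite values of PAXINDRAFT_158079 were uneven, with replicate 5 the highest and replicate 4 the lowest. PAXINDRAFT_104146 rose from 3.17 ± 0.633 to 16.5 ± 1.91 CPM (log2 fold change of 2.38 with SE 0.18, adjusted p 1.03e-10 by edgeR), and PAXINDRAFT_16449 from 4.97 ± 1.17 to 18.4 ± 2.57 CPM (log2 fold change of 1.88 with SE 0.13, adjusted p 1.22e-11 by edgeR). The log2 fold changes of the other 5 were 1.99 (PAXINDRAFT_17076), 1.90 (PAXINDRAFT_142038), 1.85 (PAXINDRAFT_103212), 1.80 (PAXINDRAFT_140191) and 1.78 (PAXINDRAFT_121149). Of the 20 genes, the reference places PAXINDRAFT_104146, PAXINDRAFT_142038 and PAXINDRAFT_175161 in overlap with a neighbouring gene, and their reads may be shared, since the sources used here do not give the strand setting of the counting.

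**Figure D2:**
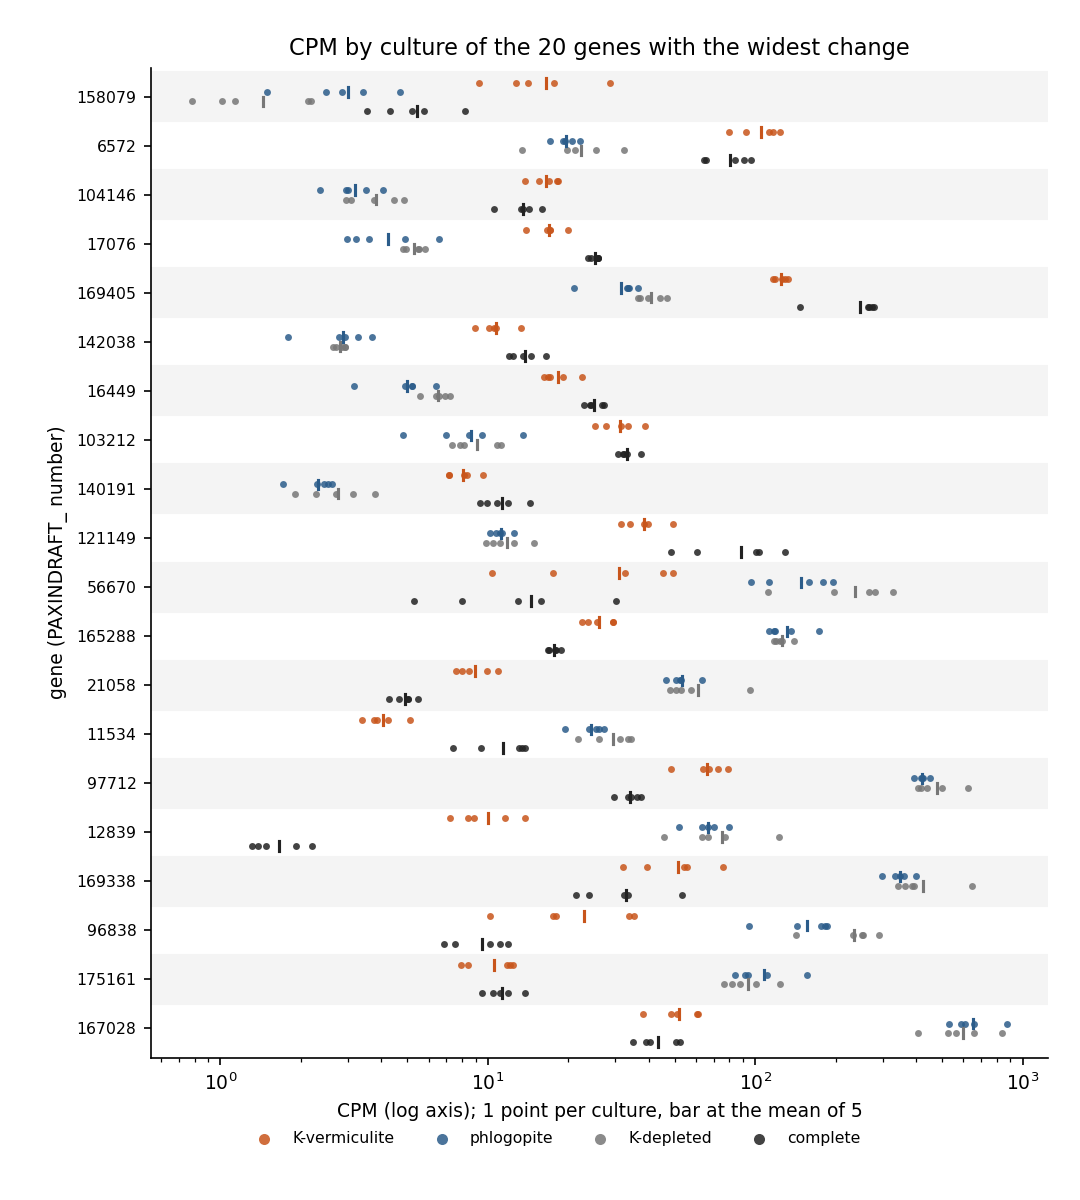
CPM of the 20 genes with the widest change, 1 point per culture and a bar at the mean of 5, on a log axis. For each gene the K-vermiculite points lie apart from the phlogopite points, and 0 of the 20 genes were called between phlogopite and K-depleted medium without mineral, a comparison that called 5.15% of all tested genes.

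These 20 genes can be set beside the cultures without mineral. All 10 of the higher genes had a mean with K-vermiculite above that on K-depleted medium, and 7 of them stayed below the mean on complete medium. The other 3, PAXINDRAFT_158079, PAXINDRAFT_6572 and PAXINDRAFT_104146, had means with K-vermiculite above both media. PAXINDRAFT_6572 averaged 22.4 CPM without KH2PO4 and 80.1 CPM with it, and PAXINDRAFT_169405, one of the 7, averaged 40.8 and 246 CPM. All 10 of the lower genes had a mean with K-vermiculite below that on K-depleted medium, and 2 of them, PAXINDRAFT_11534 and PAXINDRAFT_175161, were also below the mean on complete medium. PAXINDRAFT_11534 averaged 4.07 CPM with K-vermiculite, 24.4 CPM with phlogopite, 29.4 CPM without mineral and 11.4 CPM on complete medium. Against K-depleted medium, edgeR called all 20 genes with K-vermiculite, where 46.2% of all tested genes were called (22.5% higher and 23.7% lower), and 0 of the 20 with phlogopite, where 5.15% were called (2.77% higher and 2.38% lower). The genes were chosen for their gap between the minerals, and these comparisons share the K-depleted libraries, so nothing is read from the counts.

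The 10 most abundant transcripts, as ranked over all 25 libraries, took a larger share of the counts with K-vermiculite. The 10 most abundant genes, by mean CPM over the 25 libraries, held 12.5, 10.6, 10.1, 8.76 and 8.701% of the counts in the K-vermiculite cultures and 7.86, 7.48, 7.99, 6.21 and 6.23% in the phlogopite cultures. All 5 K-vermiculite values lay above all 5 phlogopite values, with means of 10.1 ± 1.56% and 7.15 ± 0.873% (SD, n = 5; exact two-sided permutation p 0.00794, the smallest 5 against 5 can give; 0.00794 after adjustment over 2 tests). The ranking used the libraries compared, so genes could enter the list through high K-vermiculite values, and the permutation p is no independent test. With phlogopite, the listed PAXINDRAFT_87133 and PAXINDRAFT_87129 averaged 2897 and 2573 CPM. PAXINDRAFT_165289 and PAXINDRAFT_103396, at 5157 and 4823 CPM with phlogopite, were not listed. Of the 10 listed genes 8 were called higher and 2 lower with K-vermiculite, against 25.1% and 25.3% of all tested genes, and 36.1% and 43.4% of the 83 genes at a mean of 1000 CPM or more. The call held in all 10 fits that left out 1 library for 3 of the 8 higher genes and for both lower ones. The other 5 were PAXINDRAFT_177523, PAXINDRAFT_87122, PAXINDRAFT_87133 and PAXINDRAFT_87129, described next, and PAXINDRAFT_169257, whose edgeR adjusted p was 0.0501 without phlogopite replicate 5. For the 50 most abundant genes the difference was 2.15 percentage points (exact permutation p 0.0714).

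More genes were also detected with K-vermiculite, by a small margin. The number at 1 CPM or more was 12022, 12013, 12009, 11995 and 11997 in the K-vermiculite cultures and 11963, 11976, 11935, 11890 and 11930 in the phlogopite cultures, a mean difference of 68.4 genes (exact two-sided permutation p 0.00794, adjusted over 2 tests 0.00794). The groups did not overlap. No tested gene with a mean of at least 1 CPM with one mineral had 3 counts or fewer in every library of the other, so no gene was seen with one mineral alone by that rule.

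Among the called genes, the 4 with the highest gain in CPM with K-vermiculite were all among the 10 most abundant. PAXINDRAFT_68958 was measured at 25377, 26150.1, 30466, 25594 and 22129 CPM with K-vermiculite and at 19387, 16985, 19394, 15560.3 and 14642 CPM with phlogopite (log2 fold change of 0.59 with SE 0.14, adjusted p 0.000849 by edgeR). Without mineral it averaged, on K-depleted and complete medium, 18197 and 8815 CPM, so it was lower on complete medium while higher with K-vermiculite. With muscovite PAXINDRAFT_68958 averaged 26892 CPM, also called higher than on K-depleted medium (log2 fold change 0.56, edgeR adjusted p 0.0215). PAXINDRAFT_152508 was measured at 6956, 7278, 8595, 8439.5 and 7945 CPM in the K-vermiculite cultures and at 4643, 6162, 4751, 3906 and 3823 CPM in the phlogopite cultures (log2 fold change of 0.75 with SE 0.12, adjusted p 7.06e-06 by edgeR). Neither gene overlapped between the minerals. PAXINDRAFT_177523 ran from 10254 to 32109.8 CPM with K-vermiculite and from 7936 to 10809 CPM with phlogopite (log2 fold change of 0.997 with SE 0.37, adjusted p 0.0279 by edgeR), with overlap between the groups. K-vermiculite replicates 1 and 2, at 32109.8 and 22451 CPM, stood far above the other 3. PAXINDRAFT_177523 was also highest in replicates 1 and 2 on K-depleted medium (20815 and 15994 CPM) and with muscovite (17542 and 14070 CPM), but not with phlogopite or on complete medium. Its call was lost without K-vermiculite replicate 1 (log2 fold change 0.66, adjusted p 0.125) or replicate 2 (0.0659), without phlogopite replicate 2 (0.0512) or 4 (0.0569), with limma-voom (0.0558) and with the replicate block on the 2 groups alone (0.0823).

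PAXINDRAFT_87122 was the other of the 4, and it is the last of 3 adjacent genes in the reference order, after PAXINDRAFT_87133 and PAXINDRAFT_87129. PAXINDRAFT_87122 was measured at 15472, 9112, 7473, 6352 and 7691 CPM in the K-vermiculite cultures and at 6121, 4640.3, 6193, 2279 and 3058 CPM in the phlogopite cultures (log2 fold change of 1.05 with SE 0.37, adjusted p 0.0243 by edgeR). PAXINDRAFT_87133 was measured at 9878, 6103, 5092, 4183 and 5016 CPM in the K-vermiculite cultures and at 4064, 3163, 4074, 1393 and 1791 CPM in the phlogopite cultures (log2 fold change of 1.06 with SE 0.38, adjusted p 0.0260 by edgeR). PAXINDRAFT_87129 ranked the cultures in the same order as PAXINDRAFT_87122, from 3712 to 8648 CPM with K-vermiculite and from 1331 to 3535 CPM with phlogopite (log2 fold change of 1.04 with SE 0.37, adjusted p 0.0234 by edgeR). The genes kept nearly constant ratios in every culture: over the 10 cultures PAXINDRAFT_87122 stood at 1.47 to 1.71 times PAXINDRAFT_87133, and PAXINDRAFT_87129 at 0.837 to 1.01 times. They are annotated as protein-coding and span 531, 312 and 214 bp for PAXINDRAFT_87122, PAXINDRAFT_87133 and PAXINDRAFT_87129. Whether reads that map to several genes were counted is not given in the sources used here. All 3 calls were lost without K-vermiculite replicate 1 (edgeR adjusted p 0.0841 to 0.0913), without phlogopite replicate 4 (0.0644 to 0.0702) and without phlogopite replicate 5 (0.0597 to 0.0681).

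The 4 called genes that lost most CPM with K-vermiculite were also abundant. PAXINDRAFT_165289 was measured at 1824, 1810.2, 2065, 2011 and 2063 CPM in the K-vermiculite cultures and at 4775, 4957, 5106, 6206 and 4742 CPM in the phlogopite cultures (log2 fold change of -1.40 with SE 0.09, adjusted p 8.74e-12 by edgeR). The K-vermiculite cultures lay in a narrow band far below the others. PAXINDRAFT_103396 was measured at 2067, 1423, 2272, 1671 and 939 CPM in the K-vermiculite cultures and at 4711, 4755, 6413, 4565 and 3670.1 CPM in the phlogopite cultures (log2 fold change of -1.53 with SE 0.20, adjusted p 1.28e-06 by edgeR). That gene overlaps a neighbouring gene in the reference. PAXINDRAFT_65274 was measured at 5694, 5641, 6502, 6392 and 6388 CPM in the K-vermiculite cultures and at 9888, 9584, 10380.4, 11062 and 9059.8 CPM in the phlogopite cultures (log2 fold change of -0.71 with SE 0.08, adjusted p 6.47e-08 by edgeR). PAXINDRAFT_169161 overlapped between the groups, at 2976 to 8166 CPM with K-vermiculite and 7704 to 9719.8 CPM with phlogopite (log2 fold change of -0.78 with SE 0.19, adjusted p 0.00120 by edgeR), because K-vermiculite replicate 3 lay above the lowest phlogopite culture. On complete medium PAXINDRAFT_103396 averaged 113 ± 34.7 CPM and PAXINDRAFT_169161 519 ± 74.8 CPM, well below their K-vermiculite cultures. Summed over called genes, 27 genes held 50% of the CPM gained with K-vermiculite, while 149 genes held 50% of the CPM lost.

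**Figure D3:**
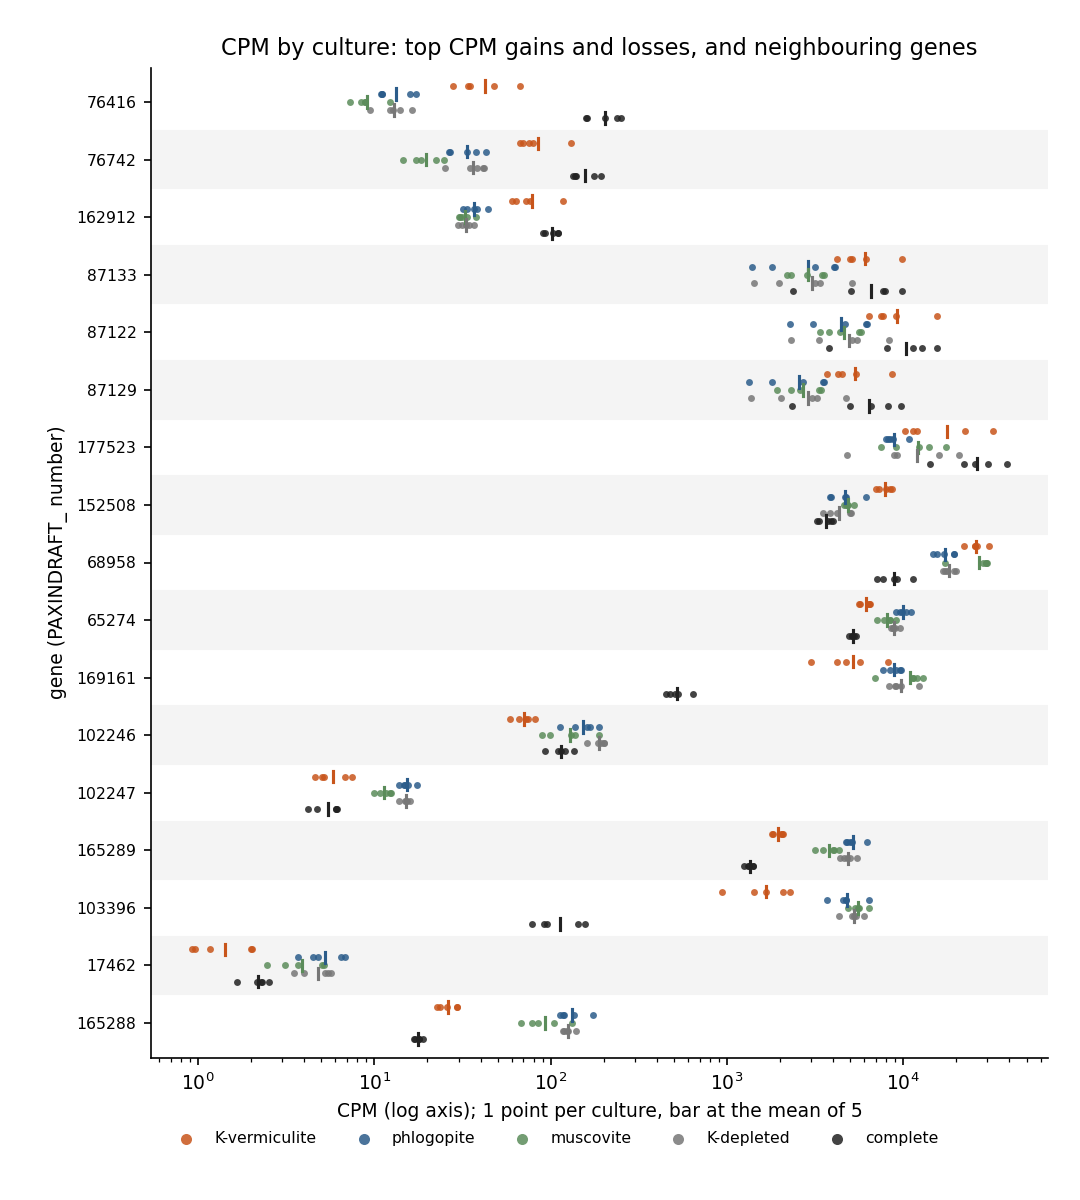
CPM of the 4 called genes that gained most and the 4 that lost most CPM with K-vermiculite, and of the neighbouring genes described in the text, 1 point per culture in all 5 groups, with a bar at the mean of 5, on a log axis. PAXINDRAFT_87133, PAXINDRAFT_87122 and PAXINDRAFT_87129 show the same wide spread within each group, and PAXINDRAFT_165289 shows narrow groups far apart.

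The split of called directions differed between classes of gene level. Below a mean of 1 CPM, 118 genes were called higher with K-vermiculite and 62 lower, of 747 tested. The filter kept genes that reached its count limit in enough libraries of any group. Some genes this low may have passed only through the group where they were high, so nothing is read from the split in this class. From 1 to 10 CPM the counts were 836 and 559 of 3238, and from 10 to 100 CPM they were 1756 and 1692 of 6409. From 100 to 1000 CPM the balance was the other way, with 462 higher and 876 lower of 2267. At 1000 CPM and above, 30 were higher and 36 lower of 83. The near-even split from 10 to 100 CPM depended on the scaling, at 50.9% higher with TMM, 50.3% with RLE factors, 60.4% with library totals and 59.01% with upper quartile scaling. The lean towards lower at 100 to 1000 CPM was found with each scaling tried, at 34.5% higher with TMM, 33.9% with RLE factors, 43.2% with library totals and 42.0% with upper quartile scaling. The share called rose with level from 24.1% below 1 CPM to 79.5% at 1000 CPM and above, where counts are also more precise. Of the 100 most abundant genes, 34 were called higher and 43 lower, with a median log2 fold change of -0.14, against 0.000575 over all tested genes.

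Called genes that were lower with K-vermiculite had a longer median span in the reference than those called higher. The median span, introns included, was 1637 bp for the lower genes and 1382.5 bp for the higher ones. It was 1320 bp for genes not called and 1413 bp for all tested genes. Among genes at least 2-fold apart the medians were 1334 bp for the lower and 1066 bp for the higher genes, and no span difference was tested. Of 5 tRNA genes that passed the filter, 2 were called higher and 0 lower in these poly(A)-selected libraries, all of them at low levels. That is 40% of the 5, against 25.1% of all tested genes called higher and 50.4% called in either direction. With 5 genes, nothing is read from this share. The 2 were PAXINDRAFT_t41, at 0.327 ± 0.179 against 0.129 ± 0.0853 CPM (edgeR adjusted p 0.0279), and PAXINDRAFT_t103, at 0.317 ± 0.0968 against 0.153 ± 0.0637 CPM (0.0347). The call of PAXINDRAFT_t41 was lost without K-vermiculite replicate 4 (0.133) and without phlogopite replicates 3, 4 or 5 (0.0501 to 0.0697). That of PAXINDRAFT_t103 was lost without K-vermiculite replicates 1, 2 or 4 or phlogopite replicates 2 or 5 (0.0640 to 0.0929).

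The difference between the minerals was next set beside the difference between the media, complete against K-depleted, which uses none of the same libraries. Of the 3202 genes higher with K-vermiculite, 2232 (69.7%) were also called higher on complete medium, 224 (7.00%) lower, and 746 (23.3%) were not called between the media. Of the 3225 lower genes, 2326 (72.1%) were also lower on complete medium, 204 (6.33%) higher, and 695 (21.6%) not called. Over all tested genes, 67% were called between the media, 33.5% higher on complete medium and 33.5% lower. For at least 2-fold differences the shares were 168 of 195 higher genes (86.2%) and 204 of 227 lower genes (89.9%). Read from the media side, 542 of the 872 genes at least 2-fold higher on complete medium were higher with K-vermiculite (62.2%, against 25.1% of all tested genes) and 17 lower. Of the 707 at least 2-fold lower on complete medium, 538 were lower with K-vermiculite (76.1%, against 25.3%) and 12 higher. Across the 12744 genes, which are not independent replicates and share the 25-library fit, the log2 fold changes of the 2 comparisons had a Pearson correlation of 0.661.

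**Figure D4:**
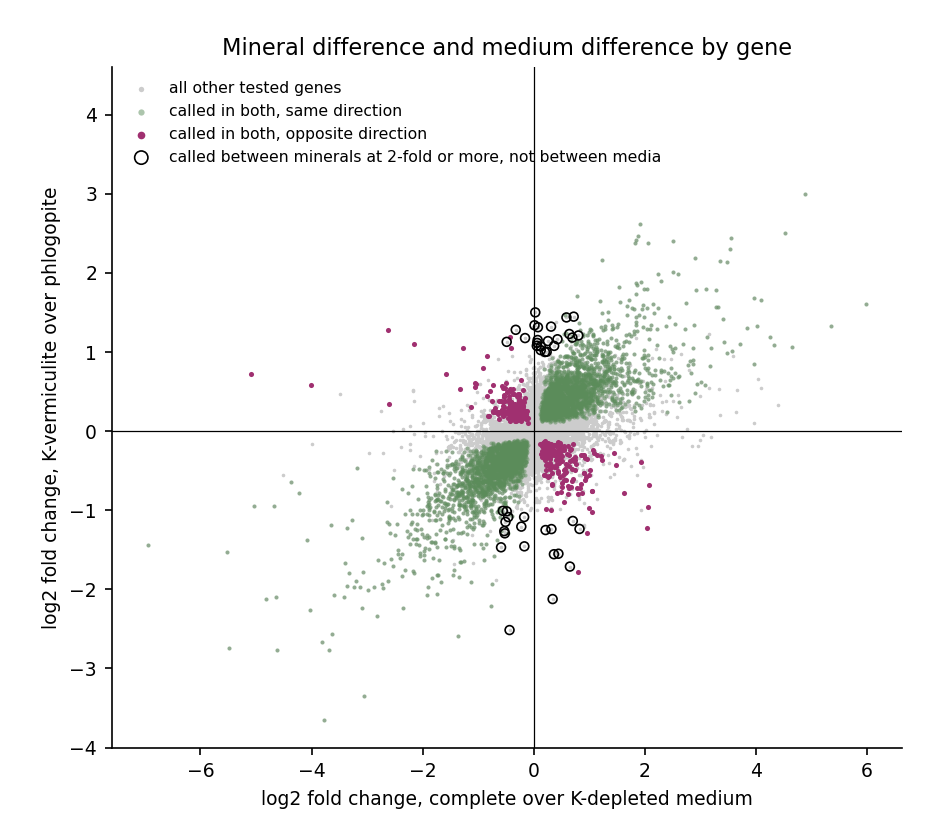
Log2 fold change of K-vermiculite over phlogopite against that of complete over K-depleted medium, 1 point per tested gene. Green points were called in both comparisons in the same direction (2232 higher and 2326 lower), purple points in opposite directions (224 and 204), and circles mark genes at least 2-fold apart between the minerals and not called between the media (22 higher and 19 lower).

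A smaller set of genes separated the minerals without a called difference between the media. There were 746 such genes higher with K-vermiculite, 22 of them at least 2-fold, and 695 lower, 19 of them at least 2-fold. The 6 named here had the widest changes each way among those of any size that averaged 5 CPM or more with no overlap, and they were chosen after their values were seen. PAXINDRAFT_115018 was measured at 539, 558, 608, 494 and 509.6 CPM in the K-vermiculite cultures and at 234, 219, 174, 289 and 175 CPM in the phlogopite cultures (log2 fold change of 1.31 with SE 0.18, adjusted p 2.76e-06 by edgeR). Its mean was 179.7 CPM on K-depleted medium, 189.5 CPM with KH2PO4 and 252 CPM with muscovite, so the K-vermiculite mean was the highest of the 5 groups. PAXINDRAFT_172409 was measured at 1256, 1238, 1529, 1103 and 880.1 CPM in the K-vermiculite cultures and at 580.2, 653, 507, 344 and 387 CPM in the phlogopite cultures (log2 fold change of 1.28 with SE 0.23, adjusted p 7.78e-05 by edgeR). On K-depleted and complete medium it averaged 514 and 411 CPM. With muscovite PAXINDRAFT_172409 averaged 834 CPM, not called against K-depleted medium (edgeR adjusted p 0.0927). PAXINDRAFT_91847 averaged 9.19 ± 0.682 CPM with K-vermiculite and 4.05 ± 1.397 CPM with phlogopite (log2 fold change of 1.18 with SE 0.15, adjusted p 4.93e-07 by edgeR).

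In the other direction, PAXINDRAFT_100589 averaged 7.701 ± 1.75 CPM with K-vermiculite and 16.3 ± 1.800 CPM with phlogopite (log2 fold change of -1.09 with SE 0.15, adjusted p 2.61e-06 by edgeR), against 15.7 and 13.96 CPM on K-depleted and complete medium. PAXINDRAFT_100617, just under 2-fold apart, averaged 10.2 ± 1.43 and 20.3 ± 3.14 CPM (log2 fold change of -0.9999 with SE 0.12, adjusted p 1.10e-07 by edgeR), against 20.5 and 19.6 CPM on the media. These 2 genes stood lower with K-vermiculite than in each of the other 4 groups by their means. PAXINDRAFT_102746 was measured at 24.99, 21.6, 20.7, 17.5 and 22.4 CPM in the K-vermiculite cultures and at 28.6, 27.6, 66.1, 91.9 and 80.1 CPM in the phlogopite cultures (log2 fold change of -1.46 with SE 0.31, adjusted p 0.000591 by edgeR). Here the phlogopite cultures split, with replicates 3, 4 and 5 at 2 times or more the level of replicates 1 and 2. With the replicate block on the 2 groups alone the adjusted p of PAXINDRAFT_102746 was 0.0625.

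Genes that moved one way between the minerals and the other way between the media numbered 224 and 204. Those with the widest changes between the minerals at a mean of at least 5 CPM and no overlap are given, again chosen after their values were seen. PAXINDRAFT_163239 was measured at 303, 337, 356, 455 and 395 CPM in the K-vermiculite cultures and at 169.8, 211, 136, 203 and 168 CPM in the phlogopite cultures (log2 fold change of 1.06 with SE 0.11, adjusted p 3.32e-08 by edgeR). Between the media it was lower with KH2PO4, at 72.3 CPM against 176 CPM (log2 fold change of -1.28, adjusted p 2.71e-10 by edgeR). PAXINDRAFT_167281, which overlaps a neighbouring gene in the reference, averaged 283 ± 19 CPM with K-vermiculite, 146 ± 25.99 CPM with phlogopite, 183 CPM on the agar lacking KH2PO4 and 102 CPM on complete medium. PAXINDRAFT_114110 and PAXINDRAFT_155804 were 1.06 and 0.80 higher on the log2 scale with K-vermiculite than with phlogopite and changed by -0.42 and -0.91 between the media. PAXINDRAFT_155804 averaged 52.7 CPM with K-vermiculite, 30.3 CPM with phlogopite, 58.9 CPM with muscovite, 47.6 CPM on K-depleted and 25.4 CPM on complete medium. Against K-depleted medium PAXINDRAFT_155804 was called lower with phlogopite (edgeR adjusted p 0.0206) and not called with K-vermiculite (0.436).

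PAXINDRAFT_100049 was measured at 18.8, 17.2, 17.3, 16.1 and 18.8 CPM in the K-vermiculite cultures and at 32.6, 30.1, 37.9, 37.9 and 36.3 CPM in the phlogopite cultures (log2 fold change of -0.99 with SE 0.08, adjusted p 9.19e-11 by edgeR). On the media it averaged 34.5 CPM without KH2PO4 and 40.3 CPM with it (log2 fold change 0.22, edgeR adjusted p 0.0102). PAXINDRAFT_97080 averaged 20.3 ± 1.55 CPM with K-vermiculite and 37.7 ± 2.81 CPM with phlogopite, against 32.9 and 47.9 CPM without and with KH2PO4. PAXINDRAFT_171958 averaged 262 ± 12.1 and 523 ± 53.7 CPM with the minerals and 415 and 516 CPM on the media. The fourth, PAXINDRAFT_94521, averaged 4.31 ± 0.587 and 8.42 ± 3.34 CPM with the minerals (log2 fold change of -0.96 with SE 0.26, adjusted p 0.00346 by edgeR), and overlaps a neighbouring gene in the reference. It averaged 5.86 CPM on K-depleted and 24.5 CPM on complete medium. Its phlogopite cultures split, at 12.5, 11.6, 5.94, 6.56 and 5.53 CPM, and the highest K-vermiculite culture stood at 5.16 CPM. With K-vermiculite it was not called against K-depleted medium (edgeR adjusted p 0.178).

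Muscovite against K-depleted medium gives a further comparison that shares no library with K-vermiculite against phlogopite. It called 3.36% of the genes tested, 191 higher (1.5%) and 237 lower (1.86%). Of the 191, 105 were higher with K-vermiculite than with phlogopite (55.0%, against 25.1% of all tested genes) and 21 lower. Of the 237, 143 were lower (60.3%, against 25.3%) and 29 higher. The correlation of log2 fold changes across the tested genes was 0.240.

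Each culture was then placed on the axis from the phlogopite mean, at 0, to the K-vermiculite mean, at 1, over all tested genes in log2 CPM with a prior count of 2. Each culture of the 2 groups was scored on an axis made without it, which is a description and not a test. K-vermiculite cultures then lay at 0.856, 1.003, 0.861, 1.04 and 1.04, and phlogopite cultures at 0.172, 0.215, 0.0457, -0.0604 and 0.0184. K-depleted cultures, which the axis did not use, lay at 0.169, 0.249, 0.164, 0.0391 and 0.0827, inside or near the phlogopite range. Complete-medium cultures lay at 1.28, 1.26, 1.26, 1.26 and 1.19, above every K-vermiculite culture. They differed from K-depleted cultures by 1.11 (exact two-sided permutation p 0.00794, adjusted over 2 tests 0.0159). Muscovite cultures lay at 0.405, 0.309, 0.121, 0.244 and 0.235 and overlapped the K-depleted range, with a difference of 0.122 (exact two-sided permutation p 0.0794, adjusted 0.0794). With 1 library left out, that p before adjustment ran from 0.0317 (without muscovite replicate 3) to 0.159 (without K-depleted replicate 4 or 5). It was 0.0397 without phlogopite replicate 5 and above 0.05 in each remaining fit of this kind.

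**Figure D5:**
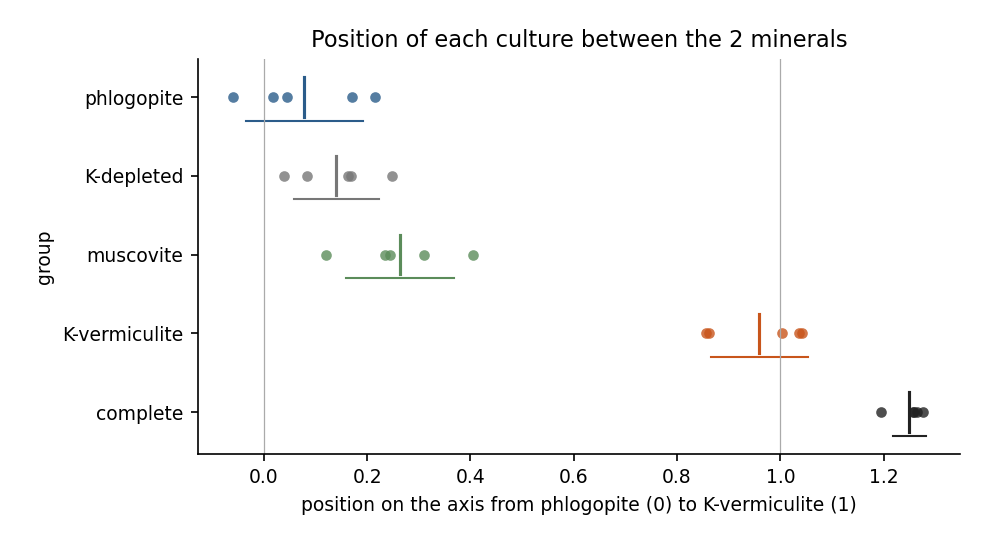
Position of each of the 25 cultures on the axis from phlogopite (0) to K-vermiculite (1), which has no unit and was made without the culture scored for the 2 end groups, with a vertical bar at the mean of 5 and a horizontal line of 1 SD to each side. K-depleted cultures lie close to phlogopite, at a mean of 0.141, muscovite cultures at 0.263, and complete-medium cultures at 1.25, beyond K-vermiculite at 0.960.

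Most genes at least 2-fold apart between the minerals stood alone in the reference order, with 179 of 195 higher and 200 of 227 lower genes having no such neighbour in the same direction, but neighbours of this kind were more frequent than their share of all genes. Order was taken from the reference of this strain (assembly v1.0), whose sequence names are not given, so a break between sequences was set where start positions fell. Of 305 tested neighbours of genes at least 2-fold higher with K-vermiculite, 18 were themselves at least 2-fold higher (5.90%, against 1.53% of all tested genes) and 3 at least 2-fold lower. Of 352 tested neighbours of genes at least 2-fold lower, 28 were at least 2-fold lower (7.95%, against 1.78%) and 3 at least 2-fold higher. Near-identical neighbouring copies can share reads, and their part in these counts was not tested.

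The adjacent genes PAXINDRAFT_165288 and PAXINDRAFT_165289 were both lower with K-vermiculite. PAXINDRAFT_165288 ran from 22.6 to 29.4 CPM with K-vermiculite and from 113 to 173 CPM with phlogopite (log2 fold change of -2.33 with SE 0.14, adjusted p 1.63e-11 by edgeR), beside the fall of PAXINDRAFT_165289 given above. In both genes phlogopite replicate 4 was the highest culture. A run of 3 genes, PAXINDRAFT_17462, PAXINDRAFT_102246 and PAXINDRAFT_102247, was lower with K-vermiculite at log2 fold changes of -1.91, -1.12 and -1.39. The K-vermiculite values of PAXINDRAFT_102246, at 58.6 to 81.7 CPM, lay below its phlogopite values, at 113 to 187 CPM.

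A run of 3 genes, PAXINDRAFT_162912, PAXINDRAFT_76416 and PAXINDRAFT_76742, was higher with K-vermiculite. PAXINDRAFT_76416 was measured at 27.9, 47.6, 34.9, 67.2 and 34.2 CPM in the K-vermiculite cultures and at 17.3, 10.9, 11.1, 10.98 and 15.9 CPM in the phlogopite cultures (log2 fold change of 1.68 with SE 0.22, adjusted p 2.67e-06 by edgeR). All 5 cultures of each group were apart, and complete medium stood higher still, at 202 ± 41.6 CPM. PAXINDRAFT_162912 averaged 77.98 ± 22.95 and 36.9 ± 4.68 CPM (log2 fold change of 1.08 with SE 0.13, adjusted p 4.65e-07 by edgeR), and PAXINDRAFT_76742 averaged 84.4 ± 26.4 and 33.4 ± 7.12 CPM (log2 fold change of 1.34 with SE 0.20, adjusted p 9.28e-06 by edgeR). In each of the 3 genes K-vermiculite replicate 4 was the highest of its group. When any called difference was counted, the longest run of adjacent genes in one direction was 8 genes higher with K-vermiculite, from PAXINDRAFT_101675 to PAXINDRAFT_118955, at log2 fold changes from 0.20 to 0.98.

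The table names 2 genes by symbol, nps2 and pks3. In fungi these symbols are used for nonribosomal peptide synthetases and polyketide synthases, enzymes that build small secondary metabolites, and the reference gives no product name for either. The gene nps2 was measured at 80.02, 89.1, 88.4, 98.7 and 98.3 CPM with K-vermiculite and at 124, 138, 131, 167 and 139 CPM with phlogopite (log2 fold change of -0.62 with SE 0.07, adjusted p 1.02e-07 by edgeR), with every phlogopite culture above every K-vermiculite culture. The gene pks3 was measured at 48.4, 48.7, 42.2, 45.9 and 54.1 CPM and at 52.5, 55.3, 43.4, 14.8 and 52.9 CPM, a log2 fold change of 0.13 with a 95% interval from -0.83 to 1.09 (edgeR adjusted p 0.834). Phlogopite replicate 4 was far below the other 4 phlogopite cultures of pks3. Replicate 4 was also the lowest with muscovite, at 12.5 CPM, and on K-depleted medium, at 15.1 CPM. On complete medium the cultures split, at 20.2, 17.9, 76.1, 55.6 and 13.3 CPM, with replicates 1, 2 and 5 low and replicate 4 not.

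Some well-expressed genes were measured as nearly equal between the minerals. Of 2350 genes that averaged 100 CPM or more, the 4 with the 95% interval closest to 0 were PAXINDRAFT_160411, PAXINDRAFT_180062, PAXINDRAFT_165337 and PAXINDRAFT_12180. PAXINDRAFT_160411 averaged 114 ± 3.04 CPM with K-vermiculite and 114 ± 3.55 CPM with phlogopite, with an interval of the log2 fold change from -0.08 to 0.09. PAXINDRAFT_12180, the widest of the 4, had an interval from -0.10 to 0.11. PAXINDRAFT_12180 was lower on complete than on K-depleted medium (log2 fold change -0.21, edgeR adjusted p 0.000975), and so was PAXINDRAFT_165337 (-0.17, 0.00246), whereas no such difference was called for PAXINDRAFT_160411 (0.0656) or PAXINDRAFT_180062 (0.189).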

How the data were processed

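RNA was sequenced from 25 cultures, 5 per group, from TruSeq Stranded mRNA libraries, per the labels' protocols. The authors deposited a table of unnormalized gene counts with a column for each culture. The submitters' processing notes name bcl2fastq 2.19, STAR 2.5.2b and HTSeq with no role or settings. The sources used here do not give the genome build, the strand setting, filters or the treatment of multi-mapping reads.

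The tools were R 4.3.3 and edgeR 4.0.16. Genes were filtered with filterByExpr (minimum count 10, minimum total 15), which kept 12744 genes with 99.995% of all counts, and libraries were scaled by TMM. All 25 libraries entered one model, with a coefficient for each group (estimateDisp, glmQLFit with robust estimation) and the contrast K-vermiculite minus phlogopite was tested with the quasi-likelihood F-test, Benjamini-Hochberg adjusted over all genes. Positive values are higher with K-vermiculite. The standard error is the absolute log2 fold change divided by the square root of F, and the 95% interval uses the test's degrees of freedom. The common biological coefficient of variation was 11.9%. Depth was 21.0 to 41.2 M counts per library. The fit was also run on simulated counts in which few genes were changed, which does not measure its error rate on these data. Single values per library were compared by exact two-sided permutation of 5 against 5.

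Named genes were the 10 highest and 10 lowest log2 fold changes among calls that averaged 5 CPM or more over the 10 libraries and did not overlap; the 4 calls with the greatest gain and the 4 with the greatest loss in CPM; the 4 with the interval closest to 0 at a mean of at least 100 CPM; genes with a symbol; and genes with at most 3 counts throughout one group. Neighbouring runs and genes set against the media were added. Members, lists and tests were chosen with earlier results of these data known. Of the gene IDs, 18030 matched locus tags of the RefSeq-format table for this strain and 2 its symbols; it holds no product names or sequences, so groups planned from product names or protein sequences were not run. Alternatives were other scalings, filters, DESeq2 1.42.0, limma-voom (limma 3.58.1), the 2 groups alone, a replicate block and leaving out each library.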

Additional observations from a re-analysis of the deposited data

Results flagged for a closer look

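Of 131 sets of 5 replicate values, one culture stood apart from the other 4 by Dixon's test at the 95% level in 9, where chance gives about 1 in 20. With phlogopite, replicate 4 was high for PAXINDRAFT_165289, at 6206 CPM against 4742 to 5106 CPM in the other 4, and for PAXINDRAFT_171958, at 618 CPM against 489.5 to 509 CPM in the other 4. Phlogopite replicate 3 was low for PAXINDRAFT_169405, at 20.98 CPM against 33.1 to 36.3 CPM in the other 4, and high for PAXINDRAFT_177523, at 10809 CPM against 7936 to 8735 CPM in the other 4. With K-vermiculite, replicate 4 was high for the adjacent genes PAXINDRAFT_162912, at 117 CPM against 60.1 to 76.2 CPM in the other 4, and PAXINDRAFT_76742, at 131 CPM against 66.7 to 79.4 CPM in the other 4, and for the tRNA gene PAXINDRAFT_t41, at 0.639 CPM against 0.196 to 0.307 CPM in the other 4. K-vermiculite replicate 2 was low for the tRNA gene PAXINDRAFT_t119, at 0.869 CPM against 1.31 to 1.396 CPM in the other 4. On the axis from phlogopite to K-vermiculite, complete-medium replicate 5 lay at 1.19, below the other 4 at 1.26 to 1.28. The log2 fold changes of the called genes among these kept their direction without the culture concerned.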

How the results depend on the processing

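The count of 6427 called genes was 5916 to 6327 when 1 library was left out, 6280 with the 2 groups fitted alone, 6417 with RLE factors, 6399 with library totals, 6403 with upper quartile scaling, 6324 with no filter on low counts, 5528 with a filter at 5 CPM, 6482 with DESeq2, 6376 with limma-voom, 4843 at an adjusted p below 0.01 and 422 with at least 2-fold change. Of the 6427, 5110 (79.5%) were called in all 10 fits that left out 1 library, and 5446 in all 8 other scalings, tools and fits on the same filter rule. Deviations of same-numbered cultures correlated at 0.0221 to 0.169, and the main fit did not pair the cultures by number. K-vermiculite replicates 1, 2, 4 and 5 and phlogopite replicates 3 and 5 correlated best with the same number of the other mineral. Whether same-numbered cultures share a batch was not tested, so values with a replicate block are given beside the main ones. The replicate block gave 6407 calls on the 2 groups alone and 6479 on all libraries, and of named genes only PAXINDRAFT_177523 and PAXINDRAFT_102746 lost their call with it. The share of the 10 most abundant genes differed by 2.38 to 3.33 percentage points without 1 library, by 2.15 for the 50 most abundant (exact permutation p 0.0714) and by 2.97 with the replicate block (exact p 0.0625, the smallest 5 sign flips can give). The difference in detected genes was 56.2 to 77.7 without 1 library, and 68.4 with the replicate block (exact p 0.0625). Muscovite minus K-depleted positions differed by 0.0867 to 0.158 and complete minus K-depleted by 1.03 to 1.16 without 1 library. Over the named genes and the alternatives, 1184 refitted values kept their direction and call, 25 lost a call, 1 gained one and 0 reversed. Precision limits the comparison most for the 350 genes not called whose interval reached 2-fold.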
